A study of Mus musculus with 5 samples.

Results

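The comparison described here set the late part of a lipopolysaccharide (LPS) time course in mouse macrophages against its early part. Its members were 4 of the 5 arrays of the series, the 0 h and 0.5 h arrays as the early pair and the 7 h and 21 h arrays as the late pair, and a gene's difference is its late-pair mean minus its early-pair mean. Of 8692 genes measured, 2491 had both late values above both early values (28.7%) and 2289 had both late values below both early values (26.3%). The 2 h array was left out of both pairs and is given beside the genes.

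The cells were macrophages grown from BALB/c bone marrow, differentiated in vitro with human CSF-1, the growth factor that drives marrow precursors into macrophages. At 0 h no LPS was given, and the other cultures had been in S. minnesota LPS at 10 ug/ml for 0.5, 2, 7 or 21 h. Every array held macrophage RNA in one channel and, in the other, RNA of day 17.5 whole embryos of another strain, C57BL6/J, so the early and late pairs share that reference. Each time had 1 array and the sources used here give no unstimulated culture at 7 h or 21 h, so time in LPS cannot be told apart from time in culture or from the array itself. The 2 times of a pair stood in for replicates, and a p-value here measures the separation of the pairs against the spread between times, which may be biological or technical.

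LPS is a lipid of the outer membrane of Gram-negative bacteria that binds TLR4 on macrophages. One branch of the signal frees NF-kappaB and turns on immediate-early genes, cytokines and feedback inhibitors quickly. The other leads to type I interferon, which acts back on the cell through STAT proteins and turns on antiviral and antigen-presentation genes in a later wave. Macrophages grown in CSF-1 also divide, and LPS is known to slow that division.

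Values are the log ratios the authors deposited, with each array centred on its median, and are given in units of that ratio. No source used here names the base of the logarithm, so no fold is stated. The direction, macrophage over embryo, is likely but not settled. It rests on the 0 h array, where the median of 16 macrophage lineage genes was 0.12 and that of 34 genes of embryonic blood, liver and muscle was -0.62. Under the opposite direction, all genes called higher would be lower and the reverse. Of 15 defining macrophage markers, 7 were measured, and on the 0 h array Lyz2 and Fcgr1 stood at 1.18 and 1.16, Coro1a and Cd53 at 0.14 and 0.11, and Laptm5, Tyrobp and Cd68 at -0.09, -0.10 and -0.15. In bulk RNA, fewer cells of a type and less RNA per cell cannot be told apart.

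The promoters of 5 genes with wide separation between the pairs are shown first. They were picked among the 20 higher genes with the widest gaps because they hold a short motif through which interferon factors are known to act. Ifit2, interferon-stimulated and among the same 20, had no match, and Saa3 was on the acute-phase list. They are the 250 bases before the gene start from RefSeq (build GRCm38.p6), 5′ to 3′ on the gene's strand, with the interferon-response core GAAANNGAA, read on either strand, in capitals, and matches to the kappaB consensus, the binding site of NF-kappaB, in capitals too. Gbp2 lies on chromosome 3 and its window is chr3:142620413-142620662 on the plus strand. The window of Rsad2 is chr12:26456453-26456702 on the minus strand, that of Cxcl10 is chr5:92348890-92349139 on the minus strand, that of Ifit1 is chr19:34640639-34640888 on the plus strand and that of Saa3 is chr7:46715677-46715926 on the minus strand.
Gbp2: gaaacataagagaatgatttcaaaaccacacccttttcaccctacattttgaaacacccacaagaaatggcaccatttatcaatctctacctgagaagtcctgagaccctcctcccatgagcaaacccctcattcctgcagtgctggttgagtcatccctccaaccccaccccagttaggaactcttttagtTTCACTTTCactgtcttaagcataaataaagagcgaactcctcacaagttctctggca
Rsad2: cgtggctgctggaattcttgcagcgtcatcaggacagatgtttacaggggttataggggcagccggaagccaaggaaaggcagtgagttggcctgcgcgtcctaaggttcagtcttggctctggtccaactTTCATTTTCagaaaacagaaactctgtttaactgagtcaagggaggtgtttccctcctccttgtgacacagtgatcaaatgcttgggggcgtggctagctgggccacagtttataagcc
Cxcl10: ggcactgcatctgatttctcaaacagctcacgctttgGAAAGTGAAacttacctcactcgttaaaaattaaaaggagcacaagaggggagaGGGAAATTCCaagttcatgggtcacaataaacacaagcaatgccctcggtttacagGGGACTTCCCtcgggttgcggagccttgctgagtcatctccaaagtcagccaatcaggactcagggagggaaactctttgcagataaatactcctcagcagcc
Ifit1: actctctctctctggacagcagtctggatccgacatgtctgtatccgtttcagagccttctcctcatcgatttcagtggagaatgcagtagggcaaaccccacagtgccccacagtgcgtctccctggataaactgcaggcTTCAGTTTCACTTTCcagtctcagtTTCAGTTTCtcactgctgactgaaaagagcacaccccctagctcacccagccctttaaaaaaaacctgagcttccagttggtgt
Saa3: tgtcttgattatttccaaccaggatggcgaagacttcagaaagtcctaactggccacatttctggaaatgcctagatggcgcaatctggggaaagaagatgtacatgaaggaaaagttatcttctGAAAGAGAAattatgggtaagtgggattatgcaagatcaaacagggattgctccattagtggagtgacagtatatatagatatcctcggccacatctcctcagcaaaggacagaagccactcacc

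The core began 58 bases before the start of Gbp2, 119 before that of Rsad2, 213 before that of Cxcl10 and 125 before that of Saa3. Ifit1 had 3 matches, at 109, 103 and 84 bases before the start, and the matches at 109 and 103 overlap. Cxcl10 also had 2 kappaB matches, at 159 and 103 bases. Over the full 300-base windows, which reach 50 bases past the start, 7 of 16 had the core (43.8%) among the 20 higher genes with the widest gap between the pairs, 16 of which had a promoter in the table. Of the 12 lower genes with the widest gap 8 had a promoter and 0 had the core. Among all 118 genes higher by 0.5 units or more, 99 had a promoter and 16 of them had the core (16.2%). The share was 8.48% of 342 promoters among genes lower by 0.5 units or more, 8.63% of 7001 among all genes measured and 8.56% of all 32851 promoters in the table. For the kappaB consensus the shares were 11.1% in the higher genes, 6.73% in the lower genes and 5.68% in all genes measured. CCAAT, a general promoter element, was in 47.5%, 40.1% and 42.7% of the same sets. A match is a string of letters and does not show that a factor was bound.

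Separation between the pairs was common. Both late values lay above both early ones in 28.7% of genes and below them in 26.3%, and in the other 3912 genes the pairs overlapped. Among the 2491 higher genes the median difference was 0.19 units and the median gap between the pairs 0.08 units. Among the 2289 lower genes the median size was 0.23 units and the median gap 0.12 units. A difference of 0.5 units or more without overlap was found for 118 genes higher (1.36%) and 439 lower (5.05%), and at 1 unit or more for 9 higher and 97 lower.

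No gene passed an adjusted p of 0.05 in limma with Benjamini-Hochberg adjustment (0 of 8692, 0%), while 1661 genes had an unadjusted p under 0.05, 701 of them higher and 960 lower. The lowest adjusted p was 0.0551, for Gbp2. After quantile normalization limma called 24 genes higher and 56 lower. Without the 0 h array it called 105 and 632, and without the 0.5 h array 9 and 4. The genes below are therefore described by their values and by whether the pairs overlap. The split between higher and lower genes also moved with centring: 52.1% of the separated genes were higher after centring and 18.7% with the values as deposited, where the median of all genes shifted by -0.10 units.

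**Figure D1:**
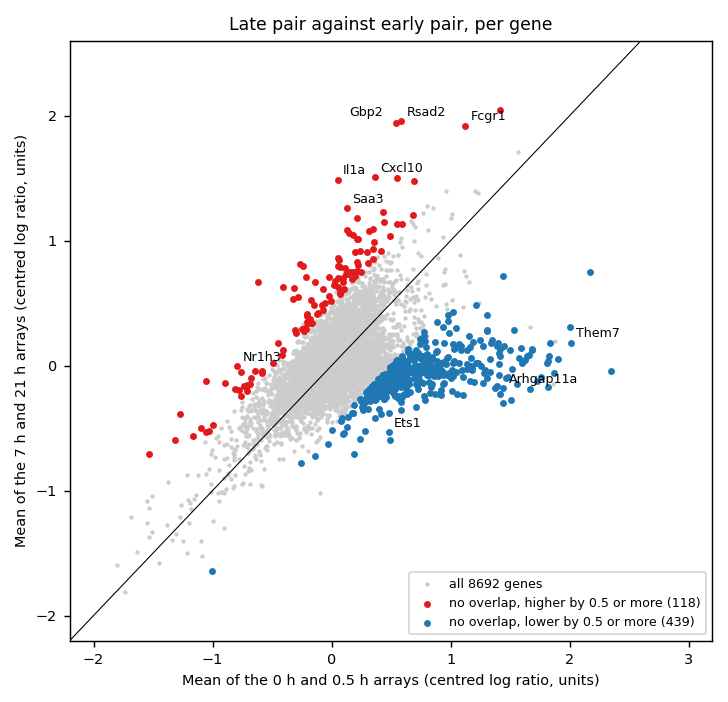
Each point is 1 of 8692 genes, with its early-pair mean on the x axis and its late-pair mean on the y axis, both as centred log ratios in units of the deposited ratio. Red points are the 118 genes higher and blue points the 439 genes lower by 0.5 units or more without overlap, grey points are all other genes, and the line marks equal values; the lower genes are spread along the x axis and lie near 0 in the late pair.

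The large higher and large lower genes differed in how the early pair behaved. In the 118 higher genes the array medians, in order of time, were -0.08, 0.04, 0.39, 0.65 and 0.56. Both early arrays were low there, and the 2 h median fell between the pairs. In the 439 lower genes the medians were 0.33, 0.97, 0.57, -0.11 and -0.03. The 0.5 h array stood highest: 422 of the 439 were higher at 0.5 h than at 0 h, 279 of them by 0.5 units or more. Set against the 0 h array alone, 136 of the 439 stayed lower by 0.5 units or more, and against the 0.5 h array alone 425 did. Of the 118 higher genes, 93 passed that size against 0 h alone and 87 against 0.5 h alone.

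The position of a probe in the numbering of the array went with the direction. Of 4730 named probes numbered 1 to 6000, 18 were higher and 623 lower by 0.5 units or more without overlap. Of 9146 with higher numbers, 230 were higher and 23 lower. On the 0.5 h array the SD of the centred values was 0.56 units in the low-numbered stretch and 0.33 in the rest, and on the 0 h, 7 h and 21 h arrays the low-numbered stretch had 0.27 to 0.29. Of the 439 lower genes, 409 had all their probes in the low-numbered stretch, and of the 118 higher genes, 6 did. The part of probe position and of the 0.5 h array in the differences was not tested. With each array centred separately within the 2 stretches, 95 genes were higher and 308 lower at this size, and 77 of the 118 and 300 of the 439 were among them.

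**Figure D2:**
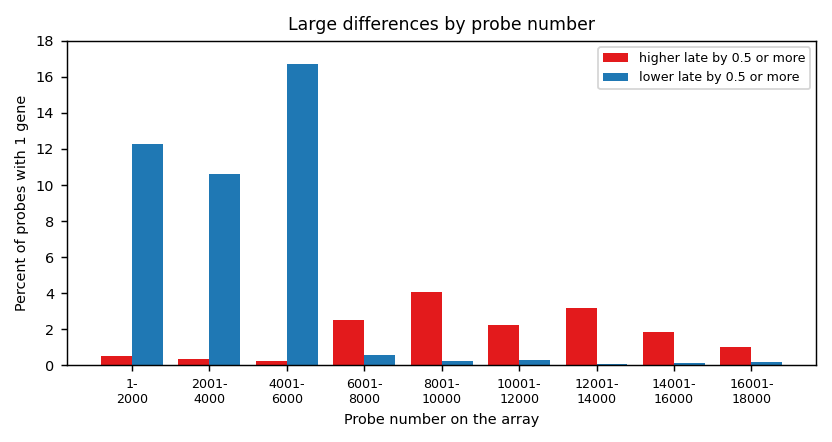
Bars give the percent of probes with 1 gene that were higher (red) or lower (blue) in the late pair by 0.5 units or more without overlap, on the y axis, for consecutive stretches of probe numbers on the x axis. Lower probes made up 10.6% to 16.7% of each stretch up to number 6000 and under 1% of each stretch after it.

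Most large differences rested on 1 probe, in 97 of the 118 higher genes and 377 of the 439 lower ones. Of the 21 higher genes with more probes, 19 had every probe separated in the same direction, and of the 62 such lower genes 35 did. Probes of a gene differed with an SD of 0.24 units, and across 3034 genes the difference of one probe correlated with that of another at r = 0.22, as a description across genes, which are not independent replicates. Genes on any of the 33 functional lists made up 7.71% of those measured, 28.8% of the large higher genes and 2.73% of the large lower genes. These shares were not split by probe number. Of the 439 large lower genes 409 had all their probes numbered up to 6000, against 6 of the 118 large higher genes and 2630 of all 8692. The part of probe position in the shares was not tested.

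The widest gap of all genes was that of an interferon-stimulated gene. Gbp2, an interferon-induced GTPase that acts on vacuoles of pathogens, had values of 0.55 and 0.53 in the early pair (0 h, then 0.5 h), 2.82 at 2 h, and 1.93 and 1.95 in the late pair (7 h, then 21 h). The arrays within each pair were nearly equal, the late ones lay far above the early ones, and the 2 h value was the highest of all. Its difference was 1.40 ± 0.08 units (SE of limma, 2 arrays a side) with a gap of 1.38. Rsad2, which encodes the antiviral enzyme viperin, had 0.96, 0.20, 1.76, 2.02 and 1.89 in order of time, the order used for every such run of 5 values below. The early arrays disagreed, and both late values stood above the higher of them, for each of its 2 probes, with a difference of 1.37 ± 0.25. Its 2 h value is the mean of probes that disagreed, at 2.80 and 0.71.

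Ifit1, whose protein binds viral RNA that lacks the host cap mark, had 0.77, 0.32, 1.22, 1.51 and 1.49. Its relative Ifit2 had 0.31, 0.05, 0.24, 1.10 and 0.99, with the 2 h value inside the early pair, unlike Ifit1. Ifit1bl2 of the same family was read by 3 probes, each of them separated, with 0.39, 0.30, 1.18, 1.02 and 1.17. Its probes disagreed at 2 h, at 0.63, 0.64 and 2.26. The 3 family members differed by 0.95, 0.86 and 0.75 units. Usp18, the protease that removes ISG15 and damps the interferon receptor, had 0.08, 0.18, 0.41, 1.27 and 0.90. Its highest value was at 7 h and its pairs did not overlap.

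Of 39 antiviral interferon genes on the list 19 were measured, of which 11 were higher, 2 lower and 6 overlapped, with a median difference of 0.20 against 0.02 for all genes. The 2 lower members, Ifi27l2a (-0.74) and Parp14 (-0.41), are named with their values known. Ifi27l2a had 1.09 and 1.01 early against 0.19 and 0.42 late. Among 5 GTPases and Ifi200 genes, Gbp2, Ifi205 and Irgm2 were higher, by 1.40, 0.79 and 0.43, and Igtp and Ifi204 overlapped. Ifi205 is a nuclear protein of the DNA-sensing Ifi200 family and had 0.51, 0.36, 1.28, 1.17 and 1.28.

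Transmitters of the interferon signal had smaller differences. Of 11 measured regulators, 3 were higher (27.3%), 1 was lower (9.09%) and 7 overlapped, against 28.7% higher and 26.3% lower for all genes. Their median of 0.05 was below 0 with the values as deposited. Irf7, the factor that amplifies type I interferon, had 0.45 and 0.72 early against 1.08 and 0.96 late, with both probes separated. Stat2, a subunit of the factor that binds the interferon-response motif, had 0.16 and 0.22 against 0.46 and 0.53. Irf1 had -0.26 at 0 h but 0.38 at 0.5 h, against 0.44 and 0.48 late, so its difference of 0.40 rested mostly on the 0 h array. Socs1, an inhibitor of JAK kinases, was lower by 0.17 units and had the opposite sign, 0.035, after the running median along probe numbers was removed.

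**Figure D3:**
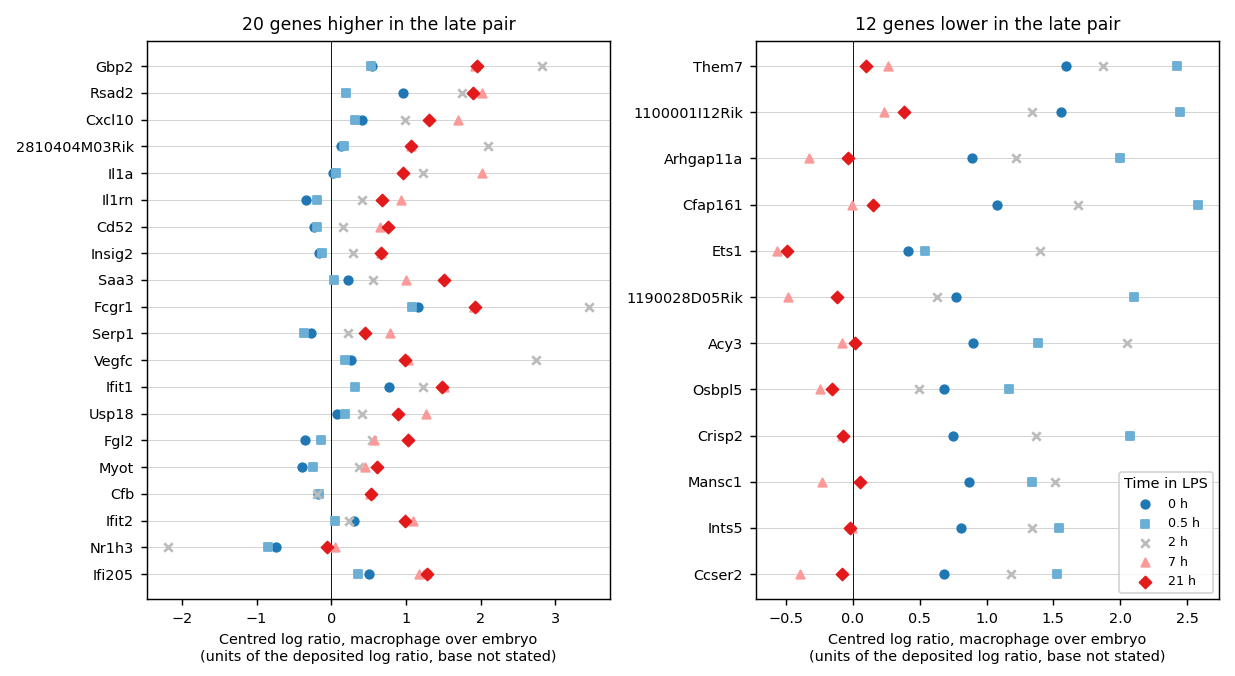
Centred log ratios (x axis, units of the deposited ratio) of the 20 higher and 12 lower genes with the widest gap between the pairs, 1 line a gene and 1 symbol an array. In the higher genes the blue early symbols lie to the left of the red late ones, close together for Gbp2 (0.55 and 0.53) and apart for Rsad2 (0.96 and 0.20); in the lower genes the 0.5 h squares lie to the right of the 0 h circles, as for Them7 at 2.43 and 1.59.

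All 7 measured cytokines and cytokine antagonists had both late values above both early ones, with a median of 0.38; the list held 27 genes. Il1a, the alarm cytokine interleukin-1 alpha, had 0.03, 0.07, 1.24, 2.02 and 0.96. The late arrays disagreed with each other, the 7 h value being the highest, and the difference of 1.44 ± 0.34 was the largest of all genes without overlap in the upward direction. Il1rn, the receptor antagonist that blocks interleukin-1, had -0.34, -0.19, 0.41, 0.94 and 0.69, a difference of 1.08 ± 0.12. Il18bp, which neutralises interleukin-18, was read by 4 separated probes and had 0.10, 0.13, 1.11, 0.64 and 0.84. At 2 h its probes disagreed, from 0.25 to 2.36. Il18 itself differed by 0.38 units. The smallest differences were those of Csf1, Il15 and Vegfa, at 0.23, 0.15 and 0.06 units. With the values as deposited, 3 of the 7 were separated upward.

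Chemokines gave 5 higher and 4 overlapping members of 9. Cxcl10, which draws activated T cells and is a shared target of interferon and NF-kappaB, had 0.42, 0.31, 0.99, 1.70 and 1.32. Both late values were far above the early ones and the 2 h value lay between, with a difference of 1.14 ± 0.14. The monocyte attractants Ccl9 and Ccl12 were higher by 0.41 and 0.38 units. Ccl6 was higher by 0.36 on the mean of 7 probes, of which 4 were separated upward and 1 downward. Ccl5 had -0.15 and -0.19 early against -0.18 and -0.03 late, overlapping.

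Feedback and survival genes of NF-kappaB were higher in 8 of 11 cases, lower in 1 and overlapping in 2, with a median of 0.29. Sod2, the mitochondrial superoxide dismutase, had 0.02, 0.12, 0.67, 0.83 and 0.74, with 3 of its 4 probes separated. Pim1, a survival kinase, had -0.04, 0.33, 0.58, 0.90 and 0.57, with all 4 probes separated. Bcl2a1a, a relative of BCL2 that protects myeloid cells and belongs to a cluster of near-identical copies that a probe may not tell apart, had 0.27, 0.17, 0.88, 0.84 and 0.76. In these 3 the 2 h value was above both early values. The lower member was Cflar, the inhibitor of caspase-8, at -0.64 with 1 of its 2 probes separated. Nfkbia, the inhibitor first induced by NF-kappaB, had -0.04 at 0 h but 0.59 at 0.5 h, so its pairs overlapped (0.71 and 0.41 late).

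Upstream of these, 11 LPS receptor and signalling genes were measured of 32 listed, with 2 higher (18.2%), 2 lower (18.2%), 7 overlapping and a median of 0.00. The higher ones were Mapkapk2 and Mapk9 (0.21 and 0.09 units) and the lower ones Ikbkg and Sharpin (-0.14 and -0.10). Mapk9 had the opposite sign, -0.01, with the values as deposited. Immediate-early genes gave 5 higher, 4 lower and 8 overlapping of 17. These shares of 29.4% higher and 23.5% lower were close to those of all genes, 28.7% and 26.3%. Fos, a subunit of the factor AP-1, had 0.26, 1.02, 0.11, 0.17 and 0.10. Only its 0.5 h value stood out, and its difference of -0.51 units came mostly from that array. Srf, a factor that drives Fos, was lower by 0.45 units (0.30 and 0.42 against -0.09 and -0.09). Fos and Srf were each read by 1 probe, numbered 2992 and 1515. In that stretch, up to 6000, the 0.5 h array had an SD of 0.56 units, against 0.33 in the rest. The part of probe position in their values was not tested. Gadd45b, a stress-induced gene of NF-kappaB, had -0.40, 0.11, 0.41, 0.71 and 0.27, with both probes separated upward.

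Antigen presentation on MHC class I was higher in 12 of 14 measured genes, with Calr lower, Canx overlapping and a median of 0.34. Psmb10, a catalytic subunit of the immunoproteasome that cuts peptides for display, had -0.09, -0.05, 0.57, 0.93 and 0.30. Tapbp, the tapasin chaperone that loads peptides, had 0.54, 0.56, 1.05, 1.01 and 1.25. Both genes were already above the early pair at 2 h. Psme2, a proteasome activator subunit, was higher by 0.48 units with both probes separated (0.36 and 0.41 against 0.83 and 0.91). H2-Q8, a class I molecule of a multigene family whose members a probe may not tell apart, had 1.04 at 0 h and 0.15 at 0.5 h against 1.22 and 1.05, so its 0 h value nearly reached the late pair. Pdia3, a chaperone of the loading complex, had 3 separated probes and a difference of 0.48. With the values as deposited, 8 of the 14 were higher.

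MHC class II presentation was higher in 4 of 8 genes, with 1 lower, Ifi30 at -0.12, and a median of 0.14. All 8 had probe numbers above 6000, where 39.1% of all genes were higher, and with each stretch centred by itself 2 were higher and 2 lower, against 24.3% and 18.9% of all genes. Ctss, the cathepsin that trims the invariant chain, had 1.76, 1.07, 1.74, 1.78 and 2.31, with the 0 h value only 0.02 under the 7 h value. H2-DMb1, a subunit of the peptide exchanger, had 0.14 and 0.03 early against 0.45 and 0.51 late. H2-Eb1 and H2-DMa differed by 0.17 and 0.12 units, and H2-Aa and Cd74 overlapped.

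Effector and acute-phase genes gave 7 higher, 2 lower and 6 overlapping of 15, with a median of 0.14. Saa3, a macrophage serum amyloid A, had 0.22, 0.03, 0.56, 1.01 and 1.51, its highest value at 21 h and a difference of 1.13 ± 0.18. Cfb, complement factor B, had -0.17, -0.17, -0.19, 0.52 and 0.53. Its late values were nearly equal and both probes were separated, with a difference of 0.69 ± 0.08. The 2 h value is the mean of probes that disagreed, at -0.52 and 0.14. Serpinb2, a protease inhibitor of activated macrophages, was higher by 0.78 units, with -0.28 at 0 h and 0.41 at 0.5 h. F3 and Upp1 were lower, by 0.38 and 0.32 units.

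Macrophage lineage genes were higher in 10 of 16 cases and lower in 0, with a median of 0.16. Fcgr1, the high-affinity receptor for IgG, had 1.16, 1.08, 3.46, 1.92 and 1.92. Slamf9 of the SLAM receptor family had -0.82, 0.00, -0.02, 0.72 and 0.54, and Siglecf, a sialic acid receptor, had -0.29, 0.71, 1.96, 1.19 and 1.18, so both differed between 0 h and 0.5 h as well. Cd52, a small surface glycoprotein of leukocytes, had -0.23, -0.19, 0.16, 0.66 and 0.76. C1qa, Fcer1g, Tyrobp, Lgals3, Cyba and Aif1 overlapped. The list includes genes that LPS is known to induce.

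Counts of the immune lists can be set beside the background of their probe numbers. Among genes whose probes all had numbers above 6000, 39.1% of all genes were higher, against 5 of 5 cytokines, 9 of 9 MHC class I genes, 10 of 13 macrophage lineage genes, 6 of 8 NF-kappaB genes, 8 of 13 antiviral genes, 6 of 10 effectors and 4 of 8 chemokines. With each stretch centred by itself, 24.3% of all genes were higher, against 5, 7, 8, 6, 8, 4 and 3 genes of the same lists. For cholesterol efflux the counts were 7 and then 6 of 9, for lysosomal genes 12 and then 10 of 22, for glycolysis 4 and then 3 of 8, and for embryonic reference genes 11 and then 7 of 21.

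Genes of the embryonic reference tissue were higher as well: 18 of 34 were higher and 2 lower, with a median of 0.14 and array medians of -0.62, -0.61, -0.50, -0.41 and -0.33. Hbb-bh1, an embryonic globin, had -0.85, -0.79, -1.03, -0.35 and -0.38 with 3 separated probes, and Apoa2, a liver apolipoprotein, had -0.33, -0.29, -0.34, 0.15 and 0.09 with 3. The embryo supplied these RNAs in the reference channel, and the list median was below 0 on all 5 arrays. The late values of Gbp2, Rsad2, Cxcl10, Il1a and Il1rn, picked among the genes with the widest gaps, were all above 0. Those of 2 other higher genes, Nr1h3 (0.05 and -0.06) and Fabp4 (-0.60 and -0.52), lay near or below it. The part of a shift toward 0 in the immune lists was not tested. Extracellular matrix genes, with list medians below 0 on all 5 arrays as well, were mostly lower or overlapping, with 3 higher and 12 lower of 27 and a median of -0.09.

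**Figure D4:**
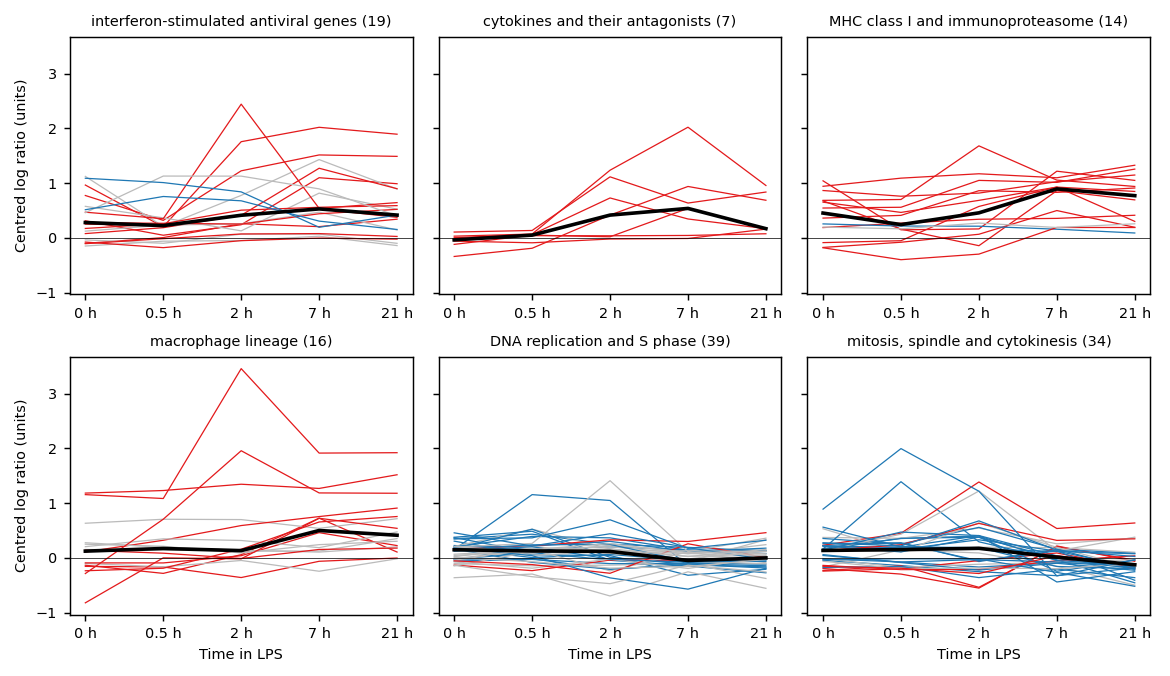
Centred log ratio (y axis, units of the deposited ratio) of every measured member of 6 gene lists at the 5 times (x axis, evenly spaced and not to scale), 1 thin line a gene, red where the late pair lies above the early pair, blue where it lies below and grey where they overlap, with the list median as the black line. The medians of the immune lists are higher at 7 h than at 0 h, as for MHC class I at 0.89 against 0.45, and the medians of the 2 cell-cycle lists are lower at 7 h and 21 h than at 0 h.

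Cell-cycle genes were the main functional groups on the lower side. Of 39 replication genes 19 were lower, 3 higher and 17 overlapping, with a median of -0.08, and of 34 mitosis genes 20 were lower, 7 higher and 7 overlapping, with a median of -0.16. The background was 26.3% lower for all genes, against 48.7% and 58.8% in these lists. Stromal markers followed at 46.2% and extracellular matrix genes at 44.4%. Among genes whose probes all had numbers above 6000, where 9.89% of all genes were lower, 10 of 26 replication genes and 15 of 28 mitosis genes were lower. With each stretch centred by itself these counts were 16 and 17, against 18.9% of all genes. Before it, the 26 and 28 genes had median differences of -0.07 and -0.10, and 0 were lower by 0.5 units or more. The genes of these lists that were, Mcm7, Rfc4, Arhgap11a, Incenp, Espl1 and Anln, all had probe numbers up to 6000. With each stretch centred by itself, 1 replication and 3 mitosis genes up to number 6000 passed that size, and 1 replication gene above it.

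Mcm7, a subunit of the replicative helicase, had 0.15, 1.16, 1.05, -0.15 and -0.27, so most of its difference of -0.86 came from the 0.5 h array. Mcm4, of the same helicase, had 0.31, 0.06, 0.04, -0.32 and -0.21 with both probes separated. Rfc4, a clamp loader subunit, had 0.38 and 0.49 against -0.14 and 0.00, and Chek1, the S-phase checkpoint kinase, 0.19 and 0.04 against -0.57 and -0.19. The early arrays of these 3 lay closer together than those of Mcm7. Ccnd1, cyclin D1, which couples growth factor signals to the cycle, had 0.35, 0.44, 0.30, -0.09 and -0.08, and each of its 3 probes was separated. The level at 2 h was close to the early pair and the difference was -0.48 ± 0.08.

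Arhgap11a, placed on the mitosis list, had 0.89, 2.00, 1.22, -0.33 and -0.03. It had the widest gap of the mitosis list, 0.93 units, on 1 probe. Incenp, the scaffold of Aurora B, had 0.16, 1.39, 0.29, -0.04 and -0.46, again with the 0.5 h array far from the rest. Espl1, the protease separase, had 0.14 and 0.47 against -0.44 and -0.25, and Anln, the cytokinesis protein anillin, 0.56 and 0.20 against -0.16 and -0.20. Anln was higher at 0 h than at 0.5 h, unlike most of the large lower genes. Stmn1, a microtubule regulator with 4 probes that were all separated, had -0.03, -0.02, -0.02, -0.26 and -0.52. Its value left the early level between 2 h and 7 h and was lowest at 21 h. Mki67, the proliferation antigen, had 0.26, 0.27, -0.05, 0.13 and -0.41. These last 2 are named with their values known.

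**Figure D5:**
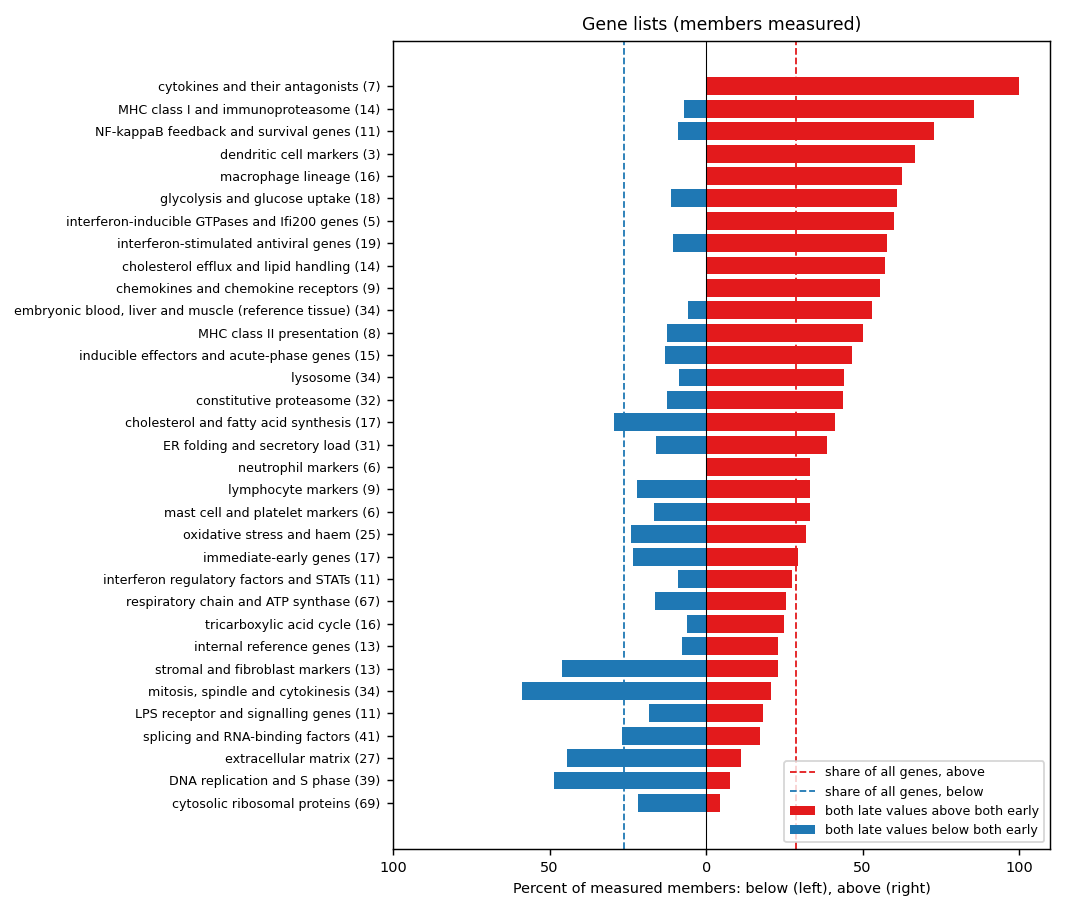
Bars give the percent of the measured members of each gene list (number in brackets) whose late values both lie above (red, right) or both below (blue, left) the early values, with dashed lines at the shares of all genes, 28.7% and 26.3%. Cytokines reach 100% above and MHC class I 85.7%, and the mitosis and replication lists reach 58.8% and 48.7% below.

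Of the 12 lower genes with the widest gaps, Arhgap11a was on the mitosis list and the other 11 were on none. Them7, a thioesterase family member, had 1.59, 2.43, 1.87, 0.26 and 0.10, and 1100001I12Rik, which has no assigned function in the annotation used, had 1.56, 2.44, 1.34, 0.23 and 0.39. In both, the 3 arrays up to 2 h were high and the late ones were low. Ets1, a transcription factor best known in lymphocytes, had 0.42, 0.54, 1.40, -0.57 and -0.49. It had the smallest SE of the 12, with a difference of -1.01 ± 0.09. Cfap161, 1190028D05Rik, Crisp2 and Ccser2 were all highest at 0.5 h, at 2.58, 2.10, 2.07 and 1.53. Acy3, Osbpl5, Mansc1 and Ints5 had differences of -1.17, -1.12, -1.19 and -1.19. Each of these 12 genes was read by 1 probe, with a number from 103 to 5540. They thus all lay in the stretch up to 6000, which held 623 of the 646 large lower probes. The part of probe position in their differences was not tested.

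Several single genes outside the immune lists were among the widest on the higher side. Insig2, which retains the sterol sensor SCAP in the endoplasmic reticulum, had -0.16, -0.12, 0.30, 0.67 and 0.67, with equal late values. Nr1h3, the oxysterol receptor LXR alpha, had -0.73, -0.85, -2.19, 0.05 and -0.06. The 2 h array lay far below all others there, and the pairs were separated by 0.68 units. Vegfc, a lymphatic growth factor, had 0.26, 0.18, 2.74, 1.03 and 0.99. Serp1, which stabilises membrane proteins in the endoplasmic reticulum, had -0.27, -0.37, 0.23, 0.79 and 0.46, with both probes separated. Fgl2, a secreted fibrinogen-like protein of activated macrophages, had -0.35, -0.14, 0.54, 0.57 and 1.03. Myot, a muscle sarcomere protein, had -0.40, -0.24, 0.37, 0.45 and 0.62, and 2810404M03Rik had 0.13, 0.17, 2.10, 1.06 and 1.06.

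Metabolic lists are set beside shares of 28.7% higher and 26.3% lower for all genes. The shares were 57.1% and 0% for cholesterol efflux and lipid handling and 41.2% and 29.4% for cholesterol and fatty acid synthesis. For glycolysis and glucose uptake they were 61.1% and 11.1%. Above probe number 6000, where 39.1% of all genes were higher, 7 of 9 efflux genes and 4 of 8 glycolysis genes were. Cholesterol efflux and lipid handling gave 8 higher, 0 lower and 6 overlapping of 14, with a median of 0.25: beside Nr1h3, the lysosomal sterol carrier Npc2 was higher by 0.42 units with both probes separated, and Pparg and its target Fabp4 by 0.39 each. Apoe, Lpl, Pltp, Scarb1, Scarb2 and Npc1 overlapped. Cholesterol and fatty acid synthesis was mixed, with 7 higher and 5 lower of 17, and its regulator Srebf1 was lower by 0.33 units. Glycolysis and glucose uptake gave 11 higher and 2 lower of 18, with a median of 0.15. Slc2a1, the basal glucose transporter, had -0.07, 0.00, 0.13, 0.35 and 0.40, and Hif1a, the factor that drives glycolytic genes, had 0.08, 0.25, 0.65, 0.53 and 0.69 with 5 of its 6 probes separated.

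In the mitochondrial lists most genes overlapped. The shares higher and lower were 25.4% and 16.4% for the respiratory chain and 25.0% and 6.25% for the tricarboxylic acid cycle. Those of all genes were 28.7% and 26.3%. The respiratory chain gave 17 higher and 11 lower of 67, with a median of 0.03, and the tricarboxylic acid cycle 4 higher and 1 lower of 16, with a median of 0.03; both medians were below 0 with the values as deposited. Within the cycle, Aco1, the cytosolic aconitase, had 0.36, 2.39, 2.80, -0.24 and -0.13. Lysosomal genes gave 15 higher and 3 lower of 34, among them Ctsc (0.59 and 0.77 against 1.22 and 1.19, both probes separated) and Ctsz (higher by 0.41), with Ctsk, the collagen-cutting cathepsin, lower by 0.45. Among oxidative stress genes Hmox1, the haem oxygenase, had 0.10, 0.02, 0.14, 0.62 and 1.11, highest at 21 h, and Prdx1 was higher by 0.33 units with 6 of 8 probes separated. Gsr, glutathione reductase, was lower by 0.73, from 1.79 at 0.5 h. That list gave 8 higher and 6 lower of 25.

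The constitutive proteasome gave 14 higher and 4 lower of 32 with a median of 0.09, which was -0.01 with the values as deposited. Its shares were 43.8% and 12.5%, against 28.7% higher and 26.3% lower for all genes. Folding genes of the endoplasmic reticulum gave 12 higher and 5 lower of 31 (38.7% and 16.1%). Above probe number 6000, 9 of 19 were higher, where 39.1% of all genes were. With each stretch centred by itself 3 of the 19 were higher and 4 lower, against 24.3% and 18.9% of all genes. Pdia4 of the folding list had 0.28, 0.20, 2.52, 0.14 and -0.03, high on the 2 h array alone. Splicing factors gave 7 higher and 11 lower of 41 (17.1% and 26.8%). Cytosolic ribosomal proteins were separated least often of the 33 lists, with 3 higher and 15 lower of 69 and a median of -0.04. With the values as deposited 44 were lower. Of the 54 whose probes all had numbers above 6000, 3 were higher and 9 lower. With each stretch centred by itself 1 was higher and 24 lower (44.4%), against 24.3% and 18.9% of all genes there. Internal reference genes gave 3 higher (Actb, Ywhaz and B2m), 1 lower (Hprt) and 9 overlapping of 13, with a median of 0.02 that was below 0 with the values as deposited.

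Markers of other cells a marrow culture could hold gave small counts, beside shares of 28.7% higher and 26.3% lower for all genes. Lymphocyte markers were higher in 3 of 9 (Cd3d, Cd79b and Vpreb1) and lower in 2 (Gzmb and Ighm), and their array medians ran from -0.03 to 0.08. Gzmb had 0.35, 1.65, 1.06, -0.17 and -0.03. Neutrophil markers were higher in 2 of 6 (Ngp and Elane, by 0.07 and 0.13 units), dendritic markers in 2 of 3 (Ccr7 and Fscn1, by 0.27 and 0.20), and mast cell and platelet markers in 2 of 6 with Mcpt4 lower. Stromal markers were higher in 3 and lower in 6 of 13, among them S100a4, which macrophages express as well, at -0.47 with both probes separated, and Vim at -0.31. The part of these cells in the differences was not tested.

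Some genes were read by 3 or more probes. Of 1167 such genes, 37 had every probe higher and 27 every probe lower. The 10 widest were Ifit1bl2, Il18bp, Hbb-bh1, Apoa2, Pdia3, Selenow and Peli1 on the higher side and Ccnd1, Rbm4b and Mobp on the lower side. The probes of Rbm4b (1623, 5588 and 5608) and Mobp (3180, 3544, 3613 and 3622) all lay in the stretch numbered 1 to 6000. Ccnd1 had probes inside and outside that stretch, at 3522, 13491 and 16404. The part of probe position in these differences was not tested. Peli1, a ubiquitin ligase of Toll-like receptor signalling, had -0.10, -0.08, 0.28, 0.30 and 0.26. Selenow, a small selenoprotein, had -0.15, -0.13, -0.02, 0.22 and 0.27. Rbm4b, an RNA-binding protein, had 0.16, 0.27, 0.01, -0.22 and -0.21, and Mobp, a myelin protein with 4 probes, had 0.21, 0.55, 0.48, -0.18 and -0.15. In each of these the arrays of a pair were closer to each other than to the other pair.

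At the edge of the rule lay genes whose pairs barely parted. Scfd1 and Zfp341 were just inside on the higher side, with differences of 0.06 and 0.04 units, and Trabd and Robo2 just inside on the lower side, at -0.11 and -0.19. Just outside lay Cog1 and Ap4e1 (0.04 and 0.10) and Slc25a4 and 1700012B09Rik (-0.04 and -0.05). Between those edges and genes such as Gbp2 the rule makes no distinction, and a gap under the 0.24 units by which probes of a gene differ is common among the members.

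Across the 18391 probes with a value on every array, the 7 h and 21 h arrays correlated at r = 0.84, the 0 h and 0.5 h arrays at 0.72, and arrays of different pairs at 0.44 to 0.60. The 2 h array correlated at 0.71 with 0.5 h and 0.66 with 21 h. These are descriptions across probes that share a reference. The 0 h and 0.5 h values of a gene differed with a median SD of 0.08 units and the late values with 0.07, but in the 439 large lower genes the early SD was 0.46.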

How the data were processed

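The deposited value of a probe on an array is a signed log ratio, treated as a score because no source used here names its base, direction, background correction or normalization by the authors. Deposited medians ran from -0.01 to 0.12 and 19147 to 19621 of 19828 probes had a value, and signal over background was not used here. The median over the 18391 probes measured on every array was subtracted from each of the 5 arrays. The annotation gave 14759 probes 1 gene, 170 several and 4899 none. The 13876 single-gene probes with all values were averaged into 8692 genes, 3034 of them with more than 1 probe. Of the single-gene probes, 14628 had their gene ID in the RefSeq table.

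The late pair (7 h, 21 h) was compared with the early pair (0 h, 0.5 h) by order and with limma 3.58.1 (lmFit, eBayes, Benjamini-Hochberg over all genes, two-sided, threshold 0.05) in R 4.3.3. Other steps used Python 3.11.15, numpy 2.4.6, pandas 2.3.3 and matplotlib 3.10.9. The calculation was tested on simulated data. Named genes are the 20 higher and 12 lower with the widest gaps, up to 4 separated members a list, up to 10 with 3 or more separated probes, and 2 just inside and outside the rule each way. Others, mostly members that complete a count, were named with their values known.

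The contrast, members and 33 lists were chosen with earlier results of these data known. The 16 alternatives covered centring, quantile normalization, a running median over 201 probes, probe summaries, filters, single arrays left out, the 2 h array, size and variance trend; centring within 2 stretches of probe numbers and list counts by stretch were added after seeing the data.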

Additional observations from a re-analysis of the deposited data

Results flagged for a closer look

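The 2 h array, which belongs to neither pair, lay outside the range of the other 4 arrays for 7 of the 32 genes with the widest gaps by 0.5 units or more. It was above the highest of them by 0.87 units for Gbp2, 1.04 for 2810404M03Rik, 1.54 for Fcgr1, 1.71 for Vegfc, 0.85 for Ets1 and 0.67 for Acy3, and at -1.34 units from the lowest of them for Nr1h3. With 1 array at 2 h these values have no replicate.

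Of the 13876 probes with 1 gene, 248 were higher and 646 lower by 0.5 units or more without overlap. Among 4356 probes with no gene listed, which the gene counts do not use, 209 were higher and 224 lower by that rule. The 10 with the widest gaps were all lower, with probe numbers between 18203 and 18531; the widest had 2.50, 2.39, 1.54, -0.35 and 0.25 in order of time.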

How the results depend on the processing

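No paired analysis was possible because the labels give no replicate numbers and each time had 1 array. Of 2491 higher and 2289 lower genes (118 and 439 at 0.5 units or more), values as deposited gave 910 and 3962, with 56 large higher. Quantile normalization gave 192 large higher, and limma then called 24 higher and 56 lower. A running median left 265 large lower. Probes counted singly gave 3963 higher, 248 of them large. Genes with more than 1 probe gave 949 and 661, with 21 and 62 large. Adding the 2 h array to the late side gave 1526 and 1039, with 74 large lower, and a size of 1 unit gave 9 and 97. Leaving out 1 array gave 3403 (without 21 h) to 3645 higher and 3113 to 3271 lower, 140 to 217 (without 0.5 h) large higher, 157 (without 0.5 h) to 648 (without 0 h) large lower, and 0 to 105 higher and 0 to 632 lower limma calls (both most without 0 h). These fits have 1 array on one side, assumed to vary like the other side. Signs reversed for Mapk9 (-0.01), Ngp (-0.033), Scfd1 (-0.041), Zfp341 (-0.057) and Cog1 (-0.056) without centring. They did so for Socs1 (0.035), Zfp341 (-0.022), Cog1 (-0.004) and 1700012B09Rik (0.142) with the running median. Centring within the stretches, added after seeing the data, reversed Zfp341 (-0.016), Cog1 (-0.015) and 1700012B09Rik (0.071), and the 2 h array reversed Pdia4 (0.64). The cause was not tested. The other 1957 values of named genes kept their direction, 94 of them with a limma adjusted p now under 0.05. Depth is unknown, and the number of arrays limits the precision.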
